A study of Mus musculus with 12 samples.

Results

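TRBV19 is a variable segment of the mouse T cell receptor (TCR) β chain, named Vβ6 in older usage. Its cells were taken from 6 populations of splenic CD8+ T cells as those whose TRB contig with the most unique molecular identifiers (UMIs) used TRBV19. This gave 4597 TRBV19 cells of 76281 cells with a TRB chain. They numbered 1173 in control Teff, 634 in control Tpex and 547 in control Tex, and 1420, 295 and 528 in the same subsets with anti-CD137. The segment was selected on its share of clonotypes in the Tex libraries, so those shares and their contrasts are given as a description and support nothing further.

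All mice were wild-type C57BL/6. The treated mice, 5 in number, received 10 µg of the anti-CD137 antibody 3H3, and 10 control mice received 100 µg of the immunoglobulin HRPN, with 2 injections a week and tissue taken after 14 days. CD137 (4-1BB) is a costimulatory receptor of activated T cells. All subsets were sorted as CD44hi: Teff as PD1-, Tpex (precursor exhausted) as PD1+Slamf6+Tim3-, and Tex (exhausted) as PD1+Slamf6-Tim3+. Each treatment and subset gave 1 gene expression and 1 TCR library, with no label that ties cells to single mice, so that animals, dose and library cannot be told apart. No p-value is given. Intervals are exact 95% binomial (Clopper-Pearson) intervals or are built from them. They cover counting error only and treat each cell as a separate draw, which cells of 1 clonotype are not.

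A TCR β chain is assembled in the thymus from a V, a D and a J segment. The V segment encodes the CDR1 and CDR2 loops, which mostly touch the MHC molecule, while CDR3 spans the V-D-J joins and mostly touches the bound peptide. Chronically stimulated CD8+ T cells pass from a Slamf6+ precursor state to a Tim3+ exhausted state, and large clonotypes are a usual feature of the latter. In mice TRBV19 is known for its recognition of the superantigen Mls-1a and for its use by some mucosal-associated invariant T (MAIT) cells, which pair it with a TRAV1-TRAJ33 α chain.

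In the GENCODE M21 annotation of GRCm38 (mm10), Trbv19 lies on the plus strand of chromosome 6 from 41178375 to 41179048. Exon 1 runs from 41178375 to 41178637, with the start codon at 41178589 and the 5′ UTR before it. Exon 2 runs from 41178746 to 41179048 and ends in the bases that open CDR3. The encoded CDR1 loop was identical in 4597 of 4597 cells and the CDR2 loop in 4596 of 4597. The sequences that carry the results are the germline end of TRBV19, the CDR3s of large TRBV19 clonotypes of the Tex libraries, and a chain with no base outside germline. In the CDR3s, capitals mark the bases given to neither the germline V nor the germline J segment, which are those of the D segment and of added bases.
Germline end of TRBV19: tgtgccagcagtatag
Clone A (TRBJ1-3, control Tex): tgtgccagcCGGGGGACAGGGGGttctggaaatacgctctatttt
Clone B (TRBJ1-1, control Tex): tgtgccagcagtCGAAGGgaagtcttcttt
Clone C (TRBJ2-2, control Tex): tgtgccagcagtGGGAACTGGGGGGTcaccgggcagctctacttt
Clone D (TRBJ1-1, anti-CD137 Tex): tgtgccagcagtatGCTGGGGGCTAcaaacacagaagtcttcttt
Clone E (TRBJ2-1, anti-CD137 Tex): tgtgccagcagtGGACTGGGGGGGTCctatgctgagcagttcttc
Clone F (TRBJ2-1, anti-CD137 Tex): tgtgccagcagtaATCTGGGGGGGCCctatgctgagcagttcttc
Clone G (TRBJ2-3, anti-CD137 Teff and Tex): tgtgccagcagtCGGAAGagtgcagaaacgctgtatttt
Chain H (TRBJ1-1, all 3 anti-CD137 libraries): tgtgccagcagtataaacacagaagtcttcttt
The 16 germline bases encode cysteine, alanine, serine, serine and isoleucine and the first base of a further codon. Clone A kept 9 of these bases, clone D kept 14 and chain H kept 15. The stretch in capitals had 14 bases in clones A, C and E, 6 in clones B and G, and 0 in chain H. Clone G was also found in anti-CD137 Tpex.

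The libraries held 9897 to 28028 cells in the deposited cell table, of which 45.3 to 87.5% had a TRB chain, with the lowest share in anti-CD137 Tpex. That library also had the lowest median UMI count per cell, 1950 against 3473 to 5619 in the others. Pairing of TRBV19 chains was poorest there: where a TRBV19 chain occurred in several paired cells, 42.1% of the companion cells had the same TRA, against 65.2 to 94.6% in the other libraries. For other TRB chains the share was 41.5% there and lowest in control Teff, at 34.6%. Clonotypes, defined as a pair of nucleotide CDR3s, were therefore also counted by the TRB chain alone. Over all 15 pairs of libraries 5653 cell barcodes were shared, 3188 of them with a TRB in both. The same TRB stood at 2 of those, and TRBV19 at 0. The tables hold no expression values per gene, so markers of the sorted subsets were not checked here.

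TRBV19 was the most frequent deposited TRBV name among clonotypes in both Tex libraries. In the control it made up 5.80% of Teff clonotypes (990 of 17058; 5.46 to 6.17%), 7.89% of Tpex clonotypes (423 of 5364; 7.18 to 8.64%) and 12.3% of Tex clonotypes (138 of 1124; 10.4 to 14.3%). With anti-CD137 it made up 5.81% in Teff (1141 of 19625; 5.49 to 6.15%), 5.26% in Tpex (187 of 3552; 4.55 to 6.05%) and 9.19% in Tex (121 of 1316; 7.69 to 10.9%). The 2 Teff libraries differed by 0.0103 percentage points (-0.475 to 0.493). The Tex libraries were the highest of their treatment, with intervals that did not meet those of Teff or Tpex. The TRBV12-2 and TRBV13-2 segments are spread over 3 deposited names, a combined one included, which together made up 14.7% of control Tex and 12.7% of anti-CD137 Tex clonotypes.

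In the control the clonotype share in Tex was 1.56 times that in Tpex and 2.12 times that in Teff. With anti-CD137 the ratios were 1.75 and 1.58. A segment was called at a ratio of at least 1.5 in either direction if it reached 1% in either library. Of the segments compared by clonotypes between control Tex and Tpex, 21.1% were called, and 31.6% between control Tex and Teff. With anti-CD137 the percentages were 26.3 and 35. Like TRBV5 below, TRBV19 was past the ratio in all 4 of these contrasts, which are the ones it was selected on. Among clonotypes of at least 2 cells it was past it in neither Tex to Teff contrast, with ratios of 1.28 and 1.11. The Teff shares there rest on 27 and 32 TRBV19 clonotypes. Of clonotypes of that size 60 in control Tex used TRBV19 and 432 other segments, against 68 and 913 in control Tpex. With anti-CD137 the counts were 56 and 423 in Tex, against 29 and 500 in Tpex. The Tex share thus stayed above the Tpex share in both treatments. From Teff to Tpex the treatments parted: the TRBV19 clonotype share was 2.08 percentage points higher in Tpex in the control (1.29 to 2.91) and 0.549 points lower with anti-CD137 (difference -0.549, from -1.34 to 0.301). Among clonotypes of at least 2 cells the Tpex share was below that of Teff in both, with Tpex to Teff ratios of 0.729 in the control and 0.523 with anti-CD137. Both PD1+ shares were lower with anti-CD137 than in the control, by 2.62 points in Tpex (difference -2.62, from -3.66 to -1.56) and 3.08 points in Tex (difference -3.08, from -5.64 to -0.567). Counted by TRB chain alone the 3 control shares were 5.70, 7.80 and 12.6%, and the 3 anti-CD137 shares 5.83, 5.38 and 9.20%.

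By cells the picture differed between the treatments. TRBV19 cells made up 5.70% of TRB cells in control Teff, 5.63% in Tpex and 6.38% in Tex. With anti-CD137 they made up 5.91% in Teff, 4.93% in Tpex and 9.05% in Tex. In the control the cell share in Tex was thus 0.747 points above that in Tpex (0.0740 to 1.43), and with anti-CD137 it was 4.11 points above (3.19 to 5.05). The anti-CD137 Tex share exceeded the control Tex share by 2.67 points (1.76 to 3.59), while by clonotypes it lay below it. By cells 31.6% of segments were called between control Tex and Tpex and 57.9% between control Tex and Teff, with 5.26 and 10.5% of those compared called higher in Tex. With anti-CD137 the percentages were 45 and 52.4, with 20 and 19% called higher. TRBV19 passed the ratio with anti-CD137 (1.83 and 1.53) and not in the control (1.13 and 1.12). Between the Tex libraries 60% of segments compared by cells were called (45% higher with anti-CD137), against 21.1% by clonotypes. Without its largest clonotype TRBV19 made up 4.81% of control Tex cells, below Teff and Tpex, and 7.99% of anti-CD137 Tex cells. Only the TRBV19 clonotype was left out there, while other segments kept theirs, of up to 762 cells in control Tex. Without the 10 largest clonotypes the TRBV19 share was higher in control Tex than in control Tpex.

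**Figure D1:**
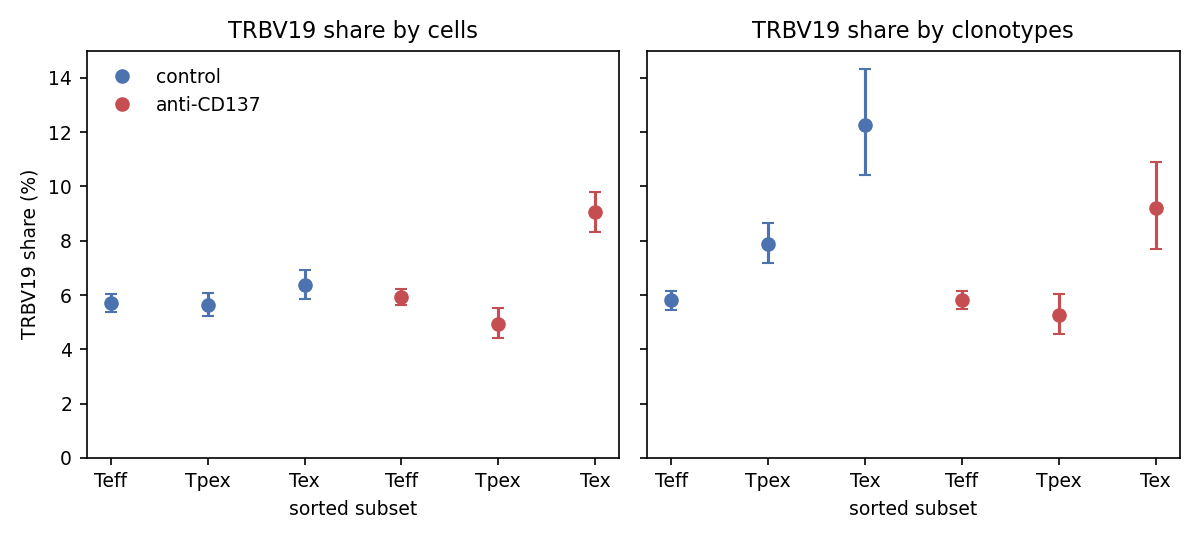
TRBV19 share (%) of cells with a TRB (left) and of clonotypes (right) in each sorted subset, control in blue and anti-CD137 in red. Points are the 6 libraries and bars exact 95% intervals. By clonotypes both Tex libraries are highest in their treatment, at 12.3% and 9.19%, and by cells only the anti-CD137 Tex library, at 9.05%, stands apart from all others.

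Of the 19 other TRBV names that reached 1% of clonotypes in some library, TRBV5 and TRBV2 had the pattern over the 6 libraries most like that of TRBV19. Likeness was the mean absolute difference of log2 shares, each relative to the segment's own mean, and came to 0.20 for TRBV5 and 0.25 for TRBV2. TRBV5 made up 3.96, 3.84 and 6.94% of control Teff, Tpex and Tex clonotypes and 3.81, 4.0 and 7.07% with anti-CD137. TRBV2 made up 2.32, 2.40 and 3.65% in the control and 2.56, 1.41 and 2.43% with anti-CD137. TRBV5 was thus higher in Tex than in Tpex by ratios of 1.81 in the control and 1.77 with anti-CD137. For TRBV19 these were 1.56 and 1.75. The Tex to Teff ratios were 1.75 in the control and 1.86 with anti-CD137 for TRBV5, against 2.12 and 1.58 for TRBV19. The higher clonotype share in Tex was therefore not particular to TRBV19. Unlike that of TRBV19, the TRBV5 share in control Tpex was not above that of Teff (ratio 0.969 against 1.36).

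TRBV19 clonotypes had fewer cells on average than those of other segments in the control PD1+ libraries, and about as many with anti-CD137. In control Tex, 501 paired TRBV19 cells formed 138 clonotypes, or 3.63 cells each, against 7.38 for other TRB segments. In anti-CD137 Tex, 459 cells formed 121 clonotypes, or 3.79 each against 3.56. Among segments with at least 20 clonotypes TRBV19 ranked 15th of 19 by cells per clonotype in control Tex and 5th of 18 in anti-CD137 Tex. In Tpex the values were 1.36 cells per TRBV19 clonotype against 1.92 in the control, and 1.22 against 1.26 with anti-CD137. By TRB chain alone the anti-CD137 Tpex values were 1.79 cells per chain against 1.96. Teff clonotypes were almost all single cells, with means of 1.03 and 1.05, which ranked TRBV19 2nd of 22 segments in the control and 1st of 22 with anti-CD137.

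Cells in clonotypes of at least 2 cells are called expanded here. All libraries were brought to 4471 paired cells, the number in the smallest, by the expected value of a draw without replacement. The expanded share of TRBV19 cells was then 78.6% in control Tex against 90.1% of other cells, a difference of -11.4 points (-16.9 to -6.88). In control Tpex it was 28.0% against 49.3%, a difference of -21.2 points (-26.8 to -15.0). With anti-CD137 the Tex values were 85.3% and 81.5%, 3.85 points apart (-0.0495 to 7.24), and the Tpex values 31.0% and 32.5%, -1.46 points apart (-7.55 to 5.12). The Tpex values rose to 59.1% and 63.2% when clones were counted by TRB chain alone and 4471 cells with a TRB were drawn. In Teff few cells were expanded, at 1.80% of TRBV19 and 1.23% of other cells in the control and 3.15% and 2.05% with anti-CD137. These lay 0.565 (-0.668 to 3.18) and 1.11 points apart (-0.797 to 3.85). Without the draw the differences were 2.19 points in control Teff (0.812 to 3.83) and 3.10 in anti-CD137 Teff (1.64 to 4.75). In anti-CD137 Tex the undrawn difference was 3.97 points (0.258 to 7.25), and in control Tpex and Tex -19.2 and -7.96 points. Counted over clonotypes rather than cells, 43.5% of TRBV19 and 43.8% of other clonotypes had at least 2 cells in control Tex, and 46.3% and 35.4% in anti-CD137 Tex, where the difference was 10.9 points (1.36 to 20.6). In control Tpex the values were 16.1% and 18.5%, -2.40 points apart (-5.95 to 1.60). The control libraries held very large clonotypes of other segments, up to 762 cells in Tex and 869 in Tpex.

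**Figure D2:**
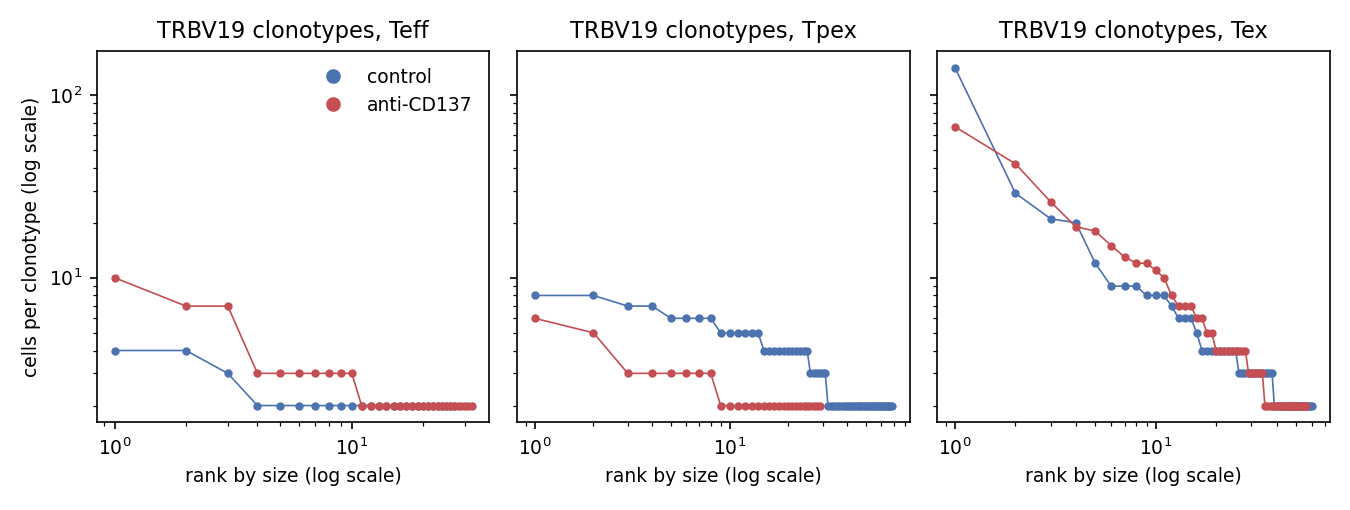
Cells per TRBV19 clonotype (log scale) against its rank by size (log scale) in each subset, for clonotypes of at least 2 cells, control in blue and anti-CD137 in red. The largest control Tex clonotype has 141 cells and the second 29, and the 3 largest anti-CD137 Tex clonotypes have 67, 42 and 26. No TRBV19 clonotype of Teff or Tpex exceeds 10 cells.

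A single clonotype dominated the control Tex cells. Clone A joins TRBV19 to TRBJ1-3 and pairs with a TRAV13-1-TRAJ15 chain. It held 141 paired cells of control Tex, 28.1% of the paired TRBV19 cells there, and 8 cells of control Tpex, and was in none of the other libraries. All 149 of its paired cells carried the same TRA. Clone B, whose CDR3 has only 10 residues, joined TRBJ1-1 and paired with TRAV12-2-TRAJ23 in 29 Tex and 4 Tpex cells of the control. Clone C joined TRBJ2-2 and paired with TRAV3N-3-TRAJ6 in 21 Tex cells. The next clonotypes of control Tex, named after their sizes were seen, had 20 cells (TRBJ2-4 with TRAV3N-3-TRAJ16), 12 (TRBJ2-4 with TRAV5N-4-TRAJ23) and 9 (TRBJ2-5 with TRAV13-2-TRAJ11), and each was also found in 4 to 6 control Tpex cells.

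The anti-CD137 Tex cells were spread over more leading clonotypes. Clone D joined TRBJ1-1 and paired with TRAV16N-TRAJ37 in 67 Tex and 5 Tpex cells. Clone E joined TRBJ2-1 and was found with 2 TRA chains that both use TRAJ6: a TRAV8D-2 chain was the main TRA of 42 Tex cells, and a TRAV13N-3 chain of 26. Of its 68 paired Tex cells 43 held both TRA chains, 17 only the first and 8 only the second. Counted as 1 clonotype these 68 cells would match the 67 of clone D. Next in size, and named after their sizes were seen, were clone F with 19 cells, a clonotype of TRBJ1-1 with TRAV3N-3-TRAJ26 with 18 and clone G with 15. None of these clonotypes was found in a control library. Counted by TRB chain alone, a TRBJ2-4 chain with 24 Tex cells lay between clone E and clone F. Its 23 paired cells were spread over 2 TRA chains, with 12 on the larger. The 10 largest clonotypes held 53.1% of the paired TRBV19 cells in control Tex and 51.2% in anti-CD137 Tex.

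In Tpex the largest TRBV19 clonotypes were small and mostly also found in Tex. Those of control Tpex were clone A with 8 cells, a TRBJ2-5 clonotype with TRAV7-5-TRAJ44 in 8 Tpex and 7 Tex cells, and a TRBJ2-1 clonotype with TRAV6-1-TRAJ30 in 7 Tpex cells and 1 Tex cell. Those of anti-CD137 Tpex were a TRBJ2-1 clonotype with TRAV13N-3-TRAJ30 in 6 Tpex and 7 Tex cells, clone D with 5 Tpex cells, and a TRBJ2-3 clonotype with TRAV10N-TRAJ33 in 3 Tpex and 6 Tex cells. In control Teff no TRBV19 clonotype exceeded 4 cells.

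Clones D and F carried the same TRA CDR3 by amino acids, although their TRB chains use different TRBJ segments. The TRA chains were separate rearrangements on TRAV16N and TRAV16, which are near-identical copies, both joined to TRAJ37. They differ at 2 of 48 bases, in capitals in the second sequence.
TRA of clone D: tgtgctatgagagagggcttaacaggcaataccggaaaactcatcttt
TRA of clone F: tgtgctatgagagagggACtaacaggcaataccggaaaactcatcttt
Among TRA CDR3s that TRBV19 clonotypes with different TRB chains shared within a library, this was the only one with at least 20 cells. By TRB residues clone F was nearer to clone E, with 13 of 15 positions identical, than to clone D, with 9 of 15.

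Most TRBV19 Tex clonotypes were not found in the other subsets of their treatment. Of 138 in control Tex, 47 were also in Tpex but not Teff, 3 in Teff but not Tpex, 3 in both and 85 in neither (61.6%). Of 121 in anti-CD137 Tex the counts were 19, 3, 5 and 94 (77.7%). For clonotypes of other segments 54.4% and 79.6% were in neither. The treatments lay closer when TRB chains alone were counted. In control Tex 38.1% of TRBV19 and 50.5% of other chains were also in Tpex, and in anti-CD137 Tex 32.5% and 35.6%. The control Tex clonotypes also found in Tpex, 36.2% of TRBV19 against 44.9% of other clonotypes, held 317 of the 501 TRBV19 Tex cells. That is 63.3% of cells, against 79.9% of other cells, a difference of -16.6 points (-21.1 to -12.3), and without clone A among the Tex cells -31.0 points. Leaving out the largest TRBV19 clonotype of the Tpex library as well made it -32.9 points. Here and below only TRBV19 clonotypes were left out, and other segments kept their largest. With anti-CD137 the clonotypes also found in Tpex were 19.8% of TRBV19 and 18.0% of other clonotypes, and held 49.7% of TRBV19 Tex cells, 5.94 points more than of other cells (1.04 to 10.9). This difference turned to -2.66 points without clone D among the Tex cells (-7.80 to 2.61), to -4.44 points without the largest TRBV19 clonotype of Tpex as well, and to -4.69 points by TRB alone. Seen from anti-CD137 Tpex, 18.3% of TRBV19 cells were in clonotypes also found in Tex, 6.74 points more than of other cells (1.85 to 12.5). Without the largest TRBV19 clonotype of Tpex this was 4.55 points (-0.137 to 10.1), and without that of Tex as well 2.30 points (-2.07 to 7.63). Counted over clonotypes the shares were 12.8% of TRBV19 against 6.39% of others, 6.44 points apart (1.92 to 12.2). Counted over TRB chains they were 23.6% against 14.6%, 9.08 points apart (2.69 to 16.4). In control Tpex 24.9% of TRBV19 cells were in clonotypes also found in Tex, against 38.8% of other cells, a difference of -13.9 points (-17.5 to -10.0). Counted over clonotypes the sign was reversed, at 11.8% of TRBV19 against 8.97% of others, 2.85 points apart (-0.180 to 6.41).

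Few Tex clonotypes of any segment spanned all 3 subsets. Of TRBV19 Tex clonotypes 3 of 138 did in the control and 5 of 121 with anti-CD137, and of those of other segments 17 of 986 and 35 of 1195. The TRBV19 Tex cells in clonotypes also found in Teff made up 3.39% in the control against 12.6% of other cells, a difference of -9.24 points (-10.8 to -7.11). With anti-CD137 they made up 5.66% against 11.7%, -6.08 points apart (-8.26 to -3.38). Counted over clonotypes the order was reversed, with intervals of the difference that span 0. Of TRBV19 Tex clonotypes 4.35% were also in Teff against 2.43% of others in the control, and 6.61% against 5.36% with anti-CD137. Seen from control Teff, 0.881% of TRBV19 cells were in clonotypes also found in Tex, 0.624 points more than of other cells (0.139 to 1.41). In anti-CD137 Teff it was 1.84%, 1.12 points more (0.428 to 2.06). The largest TRBV19 clonotype found in all 3 subsets was clone G on TRBJ2-3. It paired with TRAV14-2-TRAJ31 in 7 Teff, 3 Tpex and 15 Tex cells of the anti-CD137 libraries. The same TRB was also found with a TRAV6-5-TRAJ26 chain in all 3 subsets (3, 1 and 2 cells), and 7 Tex cells held both TRA chains. The control ones used TRBJ1-2 (1 Teff, 4 Tpex and 4 Tex cells), TRBJ2-7 (4, 2 and 1) and TRBJ1-4 (1, 4 and 1). No TRBV19 clonotype was shared between the treatments, and of other clonotypes 0 to 2 were shared by any control library with any anti-CD137 one.

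TRBV19 cells lay in the same deposited clusters as other cells of their library, with differences in Teff and Tex. The clusters are called by number because no gene values were at hand to name them. In Teff, cluster 6 held 43 of 1173 TRBV19 cells in the control, 3.67% (2.67 to 4.91%), against 2.13% of other cells. With anti-CD137 it held 102 of 1420, 7.18% (5.89 to 8.65%), against 4.24%. The differences were 1.54 points (0.517 to 2.80) and 2.94 points (1.62 to 4.43), and counted once per clonotype 1.26 and 1.51 points. Seen from the cluster, the TRBV19 share of its Teff cells came to 9.43% (control) and 9.60% (anti-CD137). Of the TRBV names compared between cluster 6 and the other clusters, 10% were at least 1.5 times higher in each library, and TRBV19 had the highest ratio in both, 1.68 and 1.67.

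Cluster 6 held a larger share of expanded and of shared Teff clonotypes than of single cells. Among TRBV19 Teff cells with anti-CD137 it held 50 of 89 cells of clonotypes of at least 2 cells (56.2%) and 30 of 1109 cells of 1-cell clonotypes (2.71%). In the control the counts were 15 of 59 (25.4%) and 21 of 963 (2.18%). Other segments showed the same contrast, with 49.1% and 2.06% under anti-CD137 and 18.1% and 1.39% in the control. Of 80 paired TRBV19 cells of cluster 6 with anti-CD137, 19 belonged to clonotypes also found in Tpex or Tex (23.8%; 14.9 to 34.6%), and 3 of 1118 in the other clusters (0.268%). In the control 11 of 36 did (30.6%; 16.3 to 48.1%), and 2 of 986 elsewhere (0.203%). The 3 largest anti-CD137 Teff clonotypes lay there: clone G and the clones J and K below.
Clone J (TRBJ2-5, anti-CD137 Teff): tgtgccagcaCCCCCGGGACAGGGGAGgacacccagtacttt
Clone K (TRBJ1-4, anti-CD137 Teff): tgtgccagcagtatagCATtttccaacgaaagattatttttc
All 7 Teff cells of clone G with its TRAV14-2 chain, all 7 of clone J (TRAV7-5-TRAJ30) and 9 of 10 of clone K (TRAV12N-2-TRAJ26) were in cluster 6. Clone J was also found in 2 Tex cells, and clone K in no Tpex or Tex cell as a pair.

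Tex cells lay mostly in cluster 3 in the control and in cluster 4 with anti-CD137, and in both treatments TRBV19 cells were tilted towards cluster 3. In the control 93.8% of TRBV19 Tex cells were in cluster 3 against 88.3% of other cells, 5.47 points more (3.01 to 7.48). With anti-CD137 28.4% were, against 20.9%, 7.52 points more (3.55 to 11.7). Single clonotypes followed their library: clone A had 137 of 141 Tex cells in cluster 3, while clone D had 48 of 67 and clone E, with its TRAV8D-2 chain, 38 of 42 in cluster 4. Counted once per clonotype and cluster the difference for cluster 3 was 10.6 points in the control (3.66 to 16.3) and 5.83 points with anti-CD137, where the interval spans 0 (-2.35 to 14.5). TRBV19 Tex cells had a slightly higher median UMI count than other Tex cells, 6016 against 5454 in the control and 3852 against 3526 with anti-CD137, and its part in the cluster difference was not tested. In Tpex 87.1% of control and 80.7% of anti-CD137 TRBV19 cells were in cluster 1 and 3.79% and 14.9% in cluster 5, close to the 87.7%, 83.4%, 3.09% and 13.3% of other cells.

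**Figure D3:**
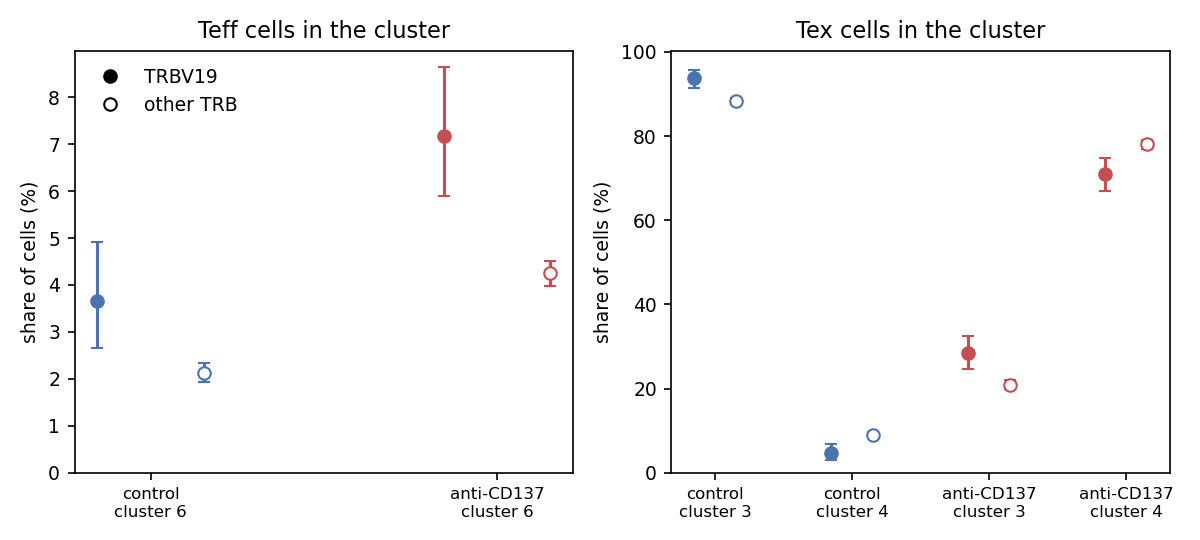
Share of Teff cells in cluster 6 (left) and of Tex cells in clusters 3 and 4 (right), in percent, for TRBV19 cells (filled) and cells with other TRB segments (open), control in blue and anti-CD137 in red, with exact 95% intervals. TRBV19 cells are higher in cluster 6 of both Teff libraries (3.67% against 2.13% and 7.18% against 4.24%) and in cluster 3 of both Tex libraries.

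The J segment joined to TRBV19 differed from that of other chains in 2 ways. TRBJ1-6 was used more by TRBV19 clonotypes in Teff, at 5.66% against 2.60% in the control and 5.17% against 2.64% with anti-CD137. In control Tpex it reached 7.09% against 2.45%, in control Tex 4.35% against 2.23%, and with anti-CD137 4.28% against 2.56% in Tpex and 4.13% against 2.93% in Tex. TRBJ1-6 was thus higher in all 6 libraries, and past the ratio of 1.5 in 5. It was the only called segment in control Teff, anti-CD137 Teff and control Tpex, where 8.33% of segments were called.

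TRBJ1-1 stood out in the anti-CD137 PD1+ libraries. It was joined to 22.5% of TRBV19 clonotypes in Tpex (16.7 to 29.1%) against 9.09% of others, and to 19% in Tex (12.4 to 27.1%) against 8.28%. In the control the TRBV19 values were 9.69% in Tpex and 8.70% in Tex, and in Teff 10.8% and 12.6%, all near those of other segments. TRBJ2-7, the most used TRBJ of other clonotypes, was lower in turn, at 10.7% of anti-CD137 Tex TRBV19 clonotypes against 22.0% of others, and 20.3% against 21.9% in control Tex. Called segments made up 58.3% in anti-CD137 Tpex and 41.7% in anti-CD137 Tex, where TRBV19 clonotypes were few (187 and 121). Of these clonotypes 24 were in both libraries, so the 2 are not separate observations. Chain H uses TRBJ1-1, and its 8 paired Tpex cells held 7 TRA chains, so 1 TRB chain counted as several clonotypes there. By TRB alone fewer TRBJ segments were called in anti-CD137 Tpex. By cells TRBJ1-3 was in 29.1% of control Tex TRBV19 cells (159 of 547), of which 148 held the chain of clone A. TRBJ1-1 was in 28.2% of anti-CD137 Tex TRBV19 cells (149 of 528), of which 74 held the chain of clone D. Over all 6 TRBJ2 segments TRBV19 clonotypes had a lower share than others in every library, with the smallest gap in control Tex (63.8% against 66.8%) and the largest in anti-CD137 Tpex (58.3% against 71.1%).

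**Figure D4:**
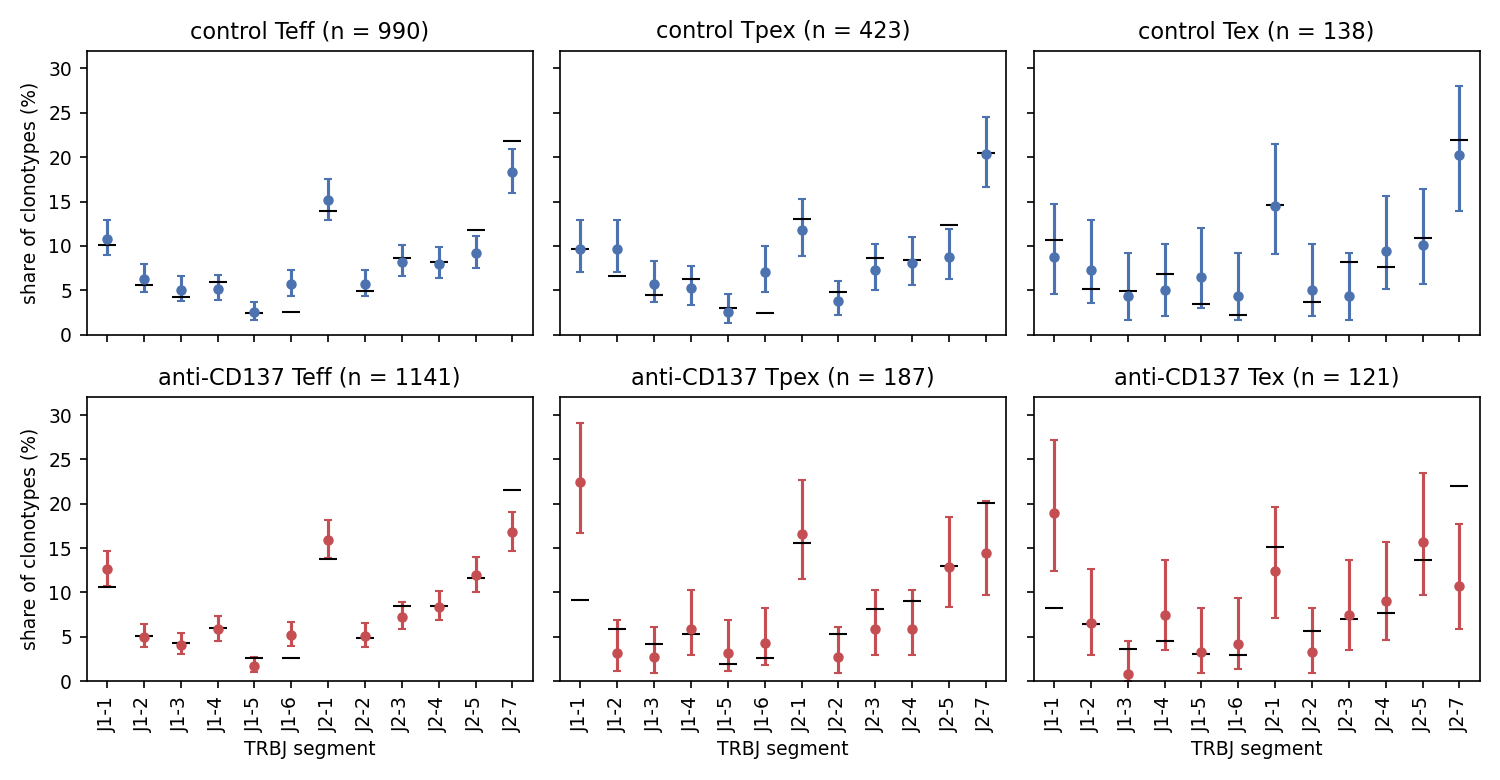
Share (%) of TRBV19 clonotypes joined to each TRBJ segment in the 6 libraries (points with exact 95% intervals, control in blue and anti-CD137 in red), with the share among clonotypes of other TRB segments as a black dash. TRBJ1-1 stands above its dash in anti-CD137 Tpex (22.5% against 9.09%) and Tex (19% against 8.28%).

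The α chains paired with TRBV19 were diverse, with a few shared preferences. TRAJ30 was paired with 7.68% of control Teff TRBV19 clonotypes against 4.77% of others, and with 9.20% against 5.10% in anti-CD137 Teff. In Tex it was at 9.42% against 4.56% in the control and 9.09% against 4.94% with anti-CD137, and in Tpex at 7.80% against 4.63% and 5.88% against 5.17%. TRAJ30 was therefore above its level in other clonotypes in all 6 libraries, and past the ratio of 1.5 in 5, where called TRAJ segments made up 10.5 to 64.1% of those compared. TRAV12D-3 was the most used TRAV of TRBV19 clonotypes in Teff, at 7.98% against 4.70% in the control and 8.33% against 4.97% with anti-CD137. The rarer TRAV2 was paired with 1.41% against 0.448% and 1.31% against 0.503%. TRAV14N-3 and TRAV19 were the segments lower in both Teff libraries, at 0.909% against 1.72% and 1.11% against 1.90% in the control. In Teff 33.3% and 19% of TRAV segments were called. The other leading partners in Teff, TRAJ22, TRAJ26, TRAV12-2 and TRAV13-1, were within the ratio of 1.5.

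In Tpex TRAV12N-2 was higher in both treatments, at 3.78% against 2.41% and 3.21% against 1.96%, as was TRAJ18, at 3.07% against 1.42% and 3.21% against 1.87%. Each anti-CD137 value rests on 6 TRBV19 clonotypes. Of the segments compared in control and anti-CD137 Tpex, 46.5 and 61.2% of TRAV and 35 and 41% of TRAJ were called. In Tex TRAJ18 was paired with 8 of 138 control TRBV19 clonotypes (5.80% against 1.72%) and 0 of 121 anti-CD137 ones (1.92% of others). In Tex the TRAV counts rest on few clonotypes. TRAV7-5 was paired with 6 of 138 control and 8 of 121 anti-CD137 Tex clonotypes, 4.35% against 2.84% of others and 6.61% against 2.76%, and was below its level in others in the Teff and Tpex libraries (1.52% against 1.92% in control Teff). TRAV12N-2 was paired with 10 control Tex TRBV19 clonotypes (7.25% against 2.23%) and 1 anti-CD137 one (0.826%), TRAV16 with 2 control (1.45% against 4.06%) and 10 anti-CD137 ones (8.26% against 3.10%). TRAV segments called in Tex made up 67.4% and 71.1% of those compared, so most segments passed the ratio there. Many TRAV segments have near-identical copies, which makes the exact name uncertain. By family, and over both treatments summed, TRAV12, TRAV6 and TRAV7 were the most used in each of the 3 subsets, with TRAV12 at 18.1% of control and 20.9% of anti-CD137 Teff TRBV19 clonotypes against 15.5% and 15.4% of others. Cells with the MAIT pairing TRAV1-TRAJ33 numbered 2 of 3984 paired TRBV19 cells, and those with the iNKT pairing TRAV11-TRAJ18 1.

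CDR3s of TRBV19 clonotypes were slightly shorter than others in every library. The mean was 13.79 ± 1.35 residues (SD, n = 990 clonotypes) against 13.91 in control Teff and 13.70 ± 1.36 (n = 423) against 13.89 in control Tpex. In control Tex it was 13.59 ± 1.31 (n = 138) against 13.90. With anti-CD137 the means were 13.79 against 13.94 in Teff, 13.63 against 14.01 in Tpex and 13.83 against 13.90 in Tex. All medians were 14. CDR3s of at least 15 residues made up 22.5% of control Tex TRBV19 clonotypes against 35.8% of others, and 31.4% against 34.5% in anti-CD137 Tex. By cells this share ran the other way in the Tex libraries, at 43.3% of TRBV19 against 30.7% of other cells in the control and 54.0% against 40.8% with anti-CD137. Without the largest TRBV19 chain it was 22.3%, below that of other cells, in the control and 46.5%, still above it, with anti-CD137. No chain was left out of the other cells in this comparison. The mean by cells was 13.79 against 14.17 residues in control Tex and 14.21 against 14.05 in anti-CD137 Tex.

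**Figure D5:**
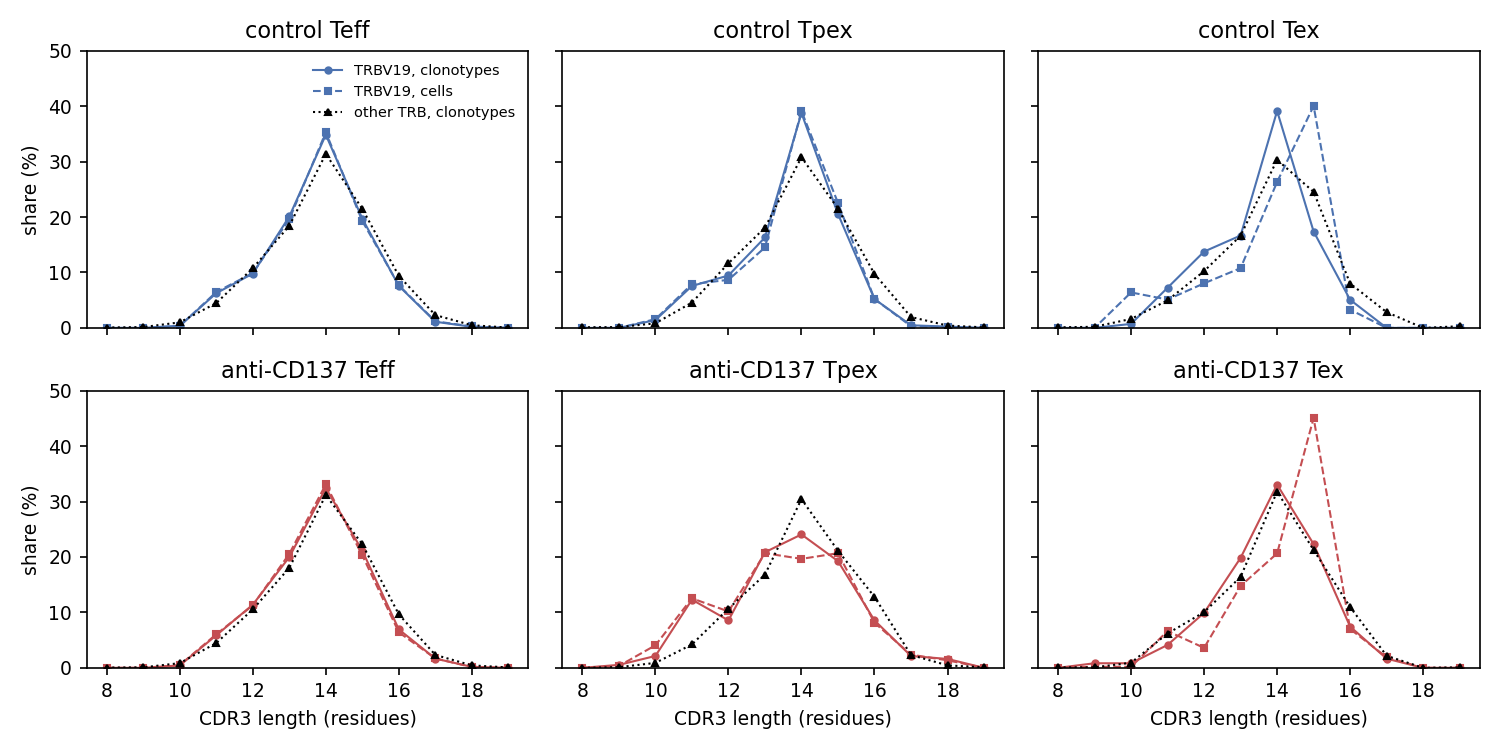
Distribution of TRB CDR3 length (residues, both anchors included) in each library, as percent of TRBV19 clonotypes (solid), TRBV19 cells (dashed) and clonotypes of other segments (dotted black). By clonotypes all peak at 14 residues, and by cells the Tex libraries peak at 15.

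The start of CDR3 separates TRBV19 from other chains, since its germline end encodes isoleucine. The residue after the 4 opening ones (cysteine, alanine and 2 serines) was isoleucine in 38.8% of TRBV19 clonotypes in control Teff (35.7 to 41.9%), 32.9% in Tpex (28.4 to 37.6%) and 21.7% in Tex (15.2 to 29.6%), and in 0.101 to 0.283% of others. With anti-CD137 there was no such order, with 33.0% in Teff, 38.5% in Tpex and 35.5% in Tex. A proline at that place, which the germline end does not encode, was in 9.19, 13 and 14.5% of control Teff, Tpex and Tex TRBV19 clonotypes and in 11, 10.7 and 14.9% with anti-CD137. In the control 49.5% of Teff (46.3 to 52.7%), 42.6% of Tpex (37.8 to 47.4%) and 34.1% of Tex (26.2 to 42.6%) clonotypes kept at least 14 germline V bases, against 43.1, 44.9 and 40.5% with anti-CD137. The stretch between the germline V and J bases was of like length everywhere, with means of 9.82 to 10.4 bases and a median of 10. Between the 4 opening and the 5 last residues TRBV19 CDR3s held fewer acidic residues than others in every library, 5.06 to 6.35% against 10.3 to 11.6%.

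By amino acids 65 TRBV19 CDR3s were found in both treatments, 4.13% of the 1574 in the control and 4.25% of the 1531 with anti-CD137. For CDR3s of other segments, taken with their V, the shares were 6.58% and 6.27%. The TRBV19 ones had short joins: the bases outside germline averaged 7.02 ± 3.13 (SD, n = 127 nucleotide sequences), against 10.2 ± 3.81 (n = 3027) for those in 1 treatment. Of the 65, 49 had at least 2 nucleotide sequences, 31 had isoleucine after the 4 opening residues, 47 were in the Teff libraries of both treatments and 7 in a PD1+ library of both. Chain L was among the latter. One nucleotide sequence gave 2 cells of control Tpex, 3 of control Tex and 2 of anti-CD137 Tex, and another with the same amino acids gave 1 control Teff cell.
Chain L (TRBJ2-4, PD1+ libraries of both treatments): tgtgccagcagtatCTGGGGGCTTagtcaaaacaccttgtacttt
Chain L (TRBJ2-4, control Teff): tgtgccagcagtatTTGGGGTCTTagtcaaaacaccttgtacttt

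Chain H, printed above with no base outside germline, was the largest TRBV19 chain of anti-CD137 Tpex. That nucleotide sequence was in 6 Teff, 15 Tpex and 6 Tex cells with anti-CD137 and in none of the control. Its 8 paired Tpex cells held 7 TRA chains on 7 TRAV segments, whereas its 4 paired Tex cells held a single TRA. The 3 control Teff cells with the same amino acids came from other nucleotide sequences, each with 1 base outside germline. The low pairing in the anti-CD137 Tpex library stands beside the spread of TRA chains there, and its part was not tested.

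TRBV19 contigs were less deep than those of other segments in both Teff libraries and control Tpex, and deeper in control Tex, by a few UMIs. The part of this depth difference in the shares was not tested. The median of TRBV19 contigs was 7 UMIs against 9 in both Teff libraries, 12 against 15 in control Tpex and 20 against 17 in control Tex. In anti-CD137 Tpex it was 6 against 6, and in anti-CD137 Tex 11 against 12. In cells with 2 TRB contigs TRBV19 was the weaker of them in 3.20 to 8.19% in 5 libraries and in 22.0% in control Tex (54 of 246; 16.9 to 27.7%). TRB barcodes that were not in the cell table used TRBV19 in 4.92, 4.68 and 7.97% in control Teff, Tpex and Tex, and in 3.01, 2.83 and 5.30% with anti-CD137. These barcodes numbered 651, 1838 and 276 in the control and 997, 11950 and 2960 with anti-CD137. In anti-CD137 Tpex they outnumbered the 5980 cells with a TRB in the cell table.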

How the data were processed

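Single-cell 5′ gene expression and TCR libraries of 6 sorted populations were used as 2 tables that the authors deposited. The TCR table lists contigs with their segments, their CDR3 and a count of reads and of UMIs, per the file headers. The cell table gives the count of UMIs and genes per cell, the percent of mitochondrial and ribosomal protein UMIs, and a cluster number, per the file headers. Cell Ranger 3.0.2 and Seurat 4.0.0, with the build mm10, come from the submitters' processing notes. No doublet caller was run, and any doublet removal by the authors is not stated.

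Library and barcode tied contigs to cells. Each cell took its contig with most UMIs per chain, and ties went to the one with more reads (850 barcodes tied for TRB). A clonotype was a pair of nucleotide CDR3s in cells with both chains, with the V segment of most of its cells. With 1 library per group no test was run. Differences of shares have intervals built from both exact intervals by Newcombe's square-and-add method. Segments were called at a ratio of at least 1.5 if they reached 1% in either set. Germline bases came from the mm10 genome with GENCODE M21, matched outward-in from each end of the CDR3.

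Named segments were the 3 most used TRBJ, TRAV and TRAJ of each subset, those past the ratio in the same direction in both treatments of a subset with at least 5 TRBV19 clonotypes each, and the 2 TRBV most like TRBV19. Named clonotypes were the 3 largest per library and up to 5 in all 3 subsets of a treatment, clusters those with at least 5% of TRBV19 cells. Members and lists were chosen with earlier results of these data known. Formulas were tested on simulated data. Python 3.11.15 was used with numpy 2.4.6, pandas 2.3.3, scipy 1.17.1 and matplotlib 3.10.9.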

Additional observations from a re-analysis of the deposited data

Results flagged for a closer look

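These results stand out because the effect had opposite signs in 2 groups under the same contrast. Each group was 1 library, so the differences between the effects were not tested. By cells, the TRBV19 share with anti-CD137 minus control was 0.213 percentage points in Teff (-0.226 to 0.650), -0.698 in Tpex (-1.39 to 0.0166) and 2.67 in Tex (1.76 to 3.59). By clonotypes it was 0.0103 in Teff (-0.475 to 0.493), -2.62 in Tpex (-3.66 to -1.56) and -3.08 in Tex (-5.64 to -0.567), so that Tex has opposite signs by cells and by clonotypes. The TRBV19 clonotype share in Tpex minus Teff was 2.08 points for control mice and -0.549 for treated mice. For expansion, the expanded share of TRBV19 minus other Tex cells, after the draw, was -11.4 points for control mice and 3.85 for treated mice, the latter with an interval that spans 0. Without the draw the values were -7.96 (-11.5 to -4.83) and 3.97 (0.258 to 7.25).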

How the results depend on the processing

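Of 268 alternative values for 70 results, 224 kept their direction and side of the ratio or stayed within the counting interval. Alternatives on barcodes shared between libraries, and sharing without the largest TRBV19 clonotype, were chosen after seeing the data. Where values changed, the cause was not tested.

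The TRBV19 share of cells moved with any TRB contig of a cell counted, to 6.54% in control Teff, 6.16% in control Tpex, 7.01% in control Tex and 6.67% in anti-CD137 Teff, and with at least 5 TRB UMIs to 5.15% and 5.41% in control and anti-CD137 Teff. Over all TCR barcodes it was 3.53% in anti-CD137 Tpex and 7.79% in anti-CD137 Tex. Without the largest TRBV19 clonotype it was 4.81% in control and 7.99% in anti-CD137 Tex, and without the 10 largest clonotypes 6.93% in control Tpex and 7.64% in control Tex.

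Among clonotypes of at least 2 cells the share was 9.51% in control Teff, 6.93% in control Tpex, 10.5% in anti-CD137 Teff and 11.7% in anti-CD137 Tex. The Tex to Teff ratios were then 1.28 in the control and 1.11 with anti-CD137, below the 1.5 used for a call, and the Tpex to Teff ratios 0.729 and 0.523. The Teff shares in these ratios rest on 27 and 32 TRBV19 clonotypes. Requiring 5 TRB and 3 TRA UMIs gave a clonotype share of 5.22% and 5.36% in control and anti-CD137 Teff, and the Tpex ratio of treatments 0.607, past the call. The Teff ratio of treatments was 0.981 in cells with 1 TRB.

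With at least 5 cells as expanded, TRBV19 minus other was -28.2 points in control Tpex, -25.6 in control Tex and -1.26 in anti-CD137 Tex, and without the largest TRBV19 clonotype -19.6 in control Tex. The cells of Tex clonotypes also found in Tpex differed by -31.0 points in the control without the largest TRBV19 clonotype of Tex, and by -32.9 without that of each library. With anti-CD137 that difference turned to -2.66 and -4.44 points and, by TRB alone, to -4.69. Once per clonotype, the cluster 6 difference in anti-CD137 Teff was 1.51 points.

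By cells, 6 TRBJ segments were called in control Tpex, 6 in control Tex, 2 in anti-CD137 Teff and 9 in anti-CD137 Tex, and 27 TRAJ in anti-CD137 Tex. By TRB alone 4 TRBJ were called in anti-CD137 Tpex. With exactly 1 TRA and 1 TRB, 13 TRAV and 7 TRAJ were called in anti-CD137 Teff. By clonotypes, 12 TRBJ segments were compared in each library. Of these 8.33% were called in control Tpex and anti-CD137 Teff, 25% in control Tex, 41.7% in anti-CD137 Tex and 58.3% in anti-CD137 Tpex. Of 41 TRAJ in anti-CD137 Tex 39% were called, and in anti-CD137 Teff 19% of 42 TRAV and 10.5% of 38 TRAJ. The alternatives compare their own sets under the 1% limit, whose sizes are not given here. Isoleucine after the 4 opening residues was in 12.6% of control and 24.8% of anti-CD137 Tex TRBV19 cells. Leaving out a replicate could not be done with 1 library per group. No paired analysis was possible because each group has 1 library and the result comes from no test.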
